A study of Mus musculus with 6 samples.

Results

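Junctions of an Sμ bait were compared between activated mouse B cells that carry the ATM RX allele on both chromosomes and cells that lack ATM. The comparison takes the 2 ATM RX/RX and the 2 ATM knockout (ATM KO) libraries, 4 of the 6 libraries of the series, chosen by their labelled genotype. They hold 3102 of the 4214 listed junctions in the immunoglobulin heavy chain locus (IgH), of which 1372 come from ATM RX/RX and 1730 from ATM KO. The other libraries are wild type and appear below only as background. The question is what a protein without its FATC end does differently from no protein at all.

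High-throughput genome-wide translocation sequencing (HTGTS) reads out the DNA ends that were joined to 1 fixed region, the bait. All groups were 129-strain mice with a preassembled IgH locus, per the series text and the labels. CD43- splenic B cells were grown for 4 days with anti-CD40 at 1 ng/mL and IL-4 at 20 ng/mL. The knockout is labelled ATM-/- and the other mutant ATM RX/RX, and the age of the mice, the cell type in which ATM is deleted and the number of mice per library are not given in the sources used here. The title of the series speaks of reduced stability of the protein without the FATC domain, and the files measure neither Atm RNA nor the protein, so the labels could not be checked against the gene.

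ATM is a kinase that is activated at DNA double-strand breaks and signals their repair. In class switching, the deaminase AID starts breaks in Sμ and in a downstream switch region, and end joining of both breaks exchanges the constant gene of the antibody. Anti-CD40 with IL-4 directs this exchange to Sγ1, for IgG1, and Sε, for IgE. The FATC domain is the short conserved end of ATM and related kinases and adjoins the kinase domain. Joints formed by classical end joining are often blunt or carry short microhomology, and alternative end joining is known for longer microhomology.

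The RX allele, R3057X, ends translation at codon 3057, near the end of the last exon. The coding end of Atm (mm9, chr9:53247851-53247913, minus strand, transcript Atm-001) is shown with codon 3057 in capitals. The codon lies at chr9:53247881-53247883 in exon 64 of 64, and 10 codons from it to the stop are lost.

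Atm coding end: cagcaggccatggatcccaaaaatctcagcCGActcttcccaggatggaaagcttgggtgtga

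The bait is shown because every joint measured here begins in it. This is the commonest letter per base in the reads of the 4 libraries, from the nested primer through the AflII site, at chr12:114669149-114669257 on the minus strand of the authors' modified build. Capitals mark 2 AGCT motifs, a preferred target of AID, and the AflII site at its end, which the protocol cuts to remove unrearranged DNA. The same 109 bases occur once on mm9 chromosome 12, at chr12:114664801-114664909, where no gene or exon of the mm9 annotation overlaps them.

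bait: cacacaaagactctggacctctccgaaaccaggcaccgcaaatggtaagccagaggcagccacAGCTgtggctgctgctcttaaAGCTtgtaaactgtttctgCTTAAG

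Depth was 414 and 1849 junctions in ATM KO replicates 1 and 2, and 1233 and 701 in ATM RX/RX replicates 1 and 2. Listed IgH junctions numbered 298, 1432, 855 and 517 in the same order, which is kept below wherever 4 values follow each other. ATM KO replicate 1 is thus the shallowest library. Sε junctions numbered 17, 128, 35 and 45. Intervals of single libraries are 95% Clopper-Pearson intervals and cover counting error only, because the PCR products carry no molecular identifiers and may repeat one molecule. Where a count is 0, the limit given in place of an interval is 3 counts of the total. With 2 against 2 libraries, a two-sided exact permutation test cannot go below p = 0.33, so it cannot reach 0.05.

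Junctions fell into the same order of regions in both mutants, with Sμ first, Sγ1 next and Sε far behind. Junctions within Sμ, which join the bait to its own switch region, made up 62.8%, 61.6%, 63.0% and 54.7% of IgH junctions. Both ATM KO libraries lay between the 2 ATM RX/RX libraries. Sγ1 held 22.5%, 23.5%, 27.8% and 31.1%. Both ATM RX/RX libraries were above both ATM KO libraries, by 4.30 to 8.66 points, with a mean difference of 6.48 points against a pooled SD of 1.73 (exact permutation p = 0.33). Sε held 5.70%, 8.94%, 4.09% and 8.70%, so that each group had a lower and a higher library. Other IgH positions held 9.06%, 5.94%, 5.03% and 5.42%. As background, the wild-type libraries had 34.3% ± 1.80 in Sμ, 26.3% ± 7.62 in Sγ1 and 36.4% ± 11.3 in Sε (SD, n = 2).

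Relative to all junctions, none of the 10 region and orientation classes passed an adjusted p of 0.05 in edgeR's quasi-likelihood test (0.0%). DESeq2 likewise called 0, and 0 classes had an unadjusted p under 0.05. The smallest adjusted p was 0.611. The Sγ1 difference was thus not called in either orientation: minus-orientation Sγ1 junctions, which include the deletional switch joints, took 12.3%, 11.7%, 12.6% and 14.4% of all junctions, 1.12-fold in ATM RX/RX over ATM KO with a 95% interval of 0.845 to 1.50. Plus-orientation Sγ1 junctions, which are inversions or joins between chromosomes, took 3.86%, 6.92%, 6.73% and 8.56% (1.31-fold, 0.656 to 2.63).

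The intervals state how large a difference between these libraries could have gone unseen. For minus-orientation Sμ junctions the 4 libraries stood at 27.8%, 26.9%, 25.0% and 25.2% of all junctions. The fold was 0.920 with an interval of 0.815 to 1.04, the narrowest of the 10. For plus-orientation Sμ junctions, at 17.4%, 21.0%, 19.0% and 15.4%, it was 0.890 (0.649 to 1.22). Minus-orientation Sε junctions, which include the joints that yield IgE, took 4.11%, 6.11%, 2.03% and 6.13%. Here ATM RX/RX replicates 1 and 2 differed more from each other than the group means, and the interval of 0.211 to 2.39 leaves a difference of 2-fold in either direction unresolved at this depth. Plus-orientation Sε junctions were counted 0, 15, 10 and 4 times in the authors' summary counts, and their interval, 0.209 to 6.16, was the widest. Minus and plus junctions elsewhere in IgH had intervals of 0.286 to 2.00 and 0.278 to 1.35.

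**Figure D1:**
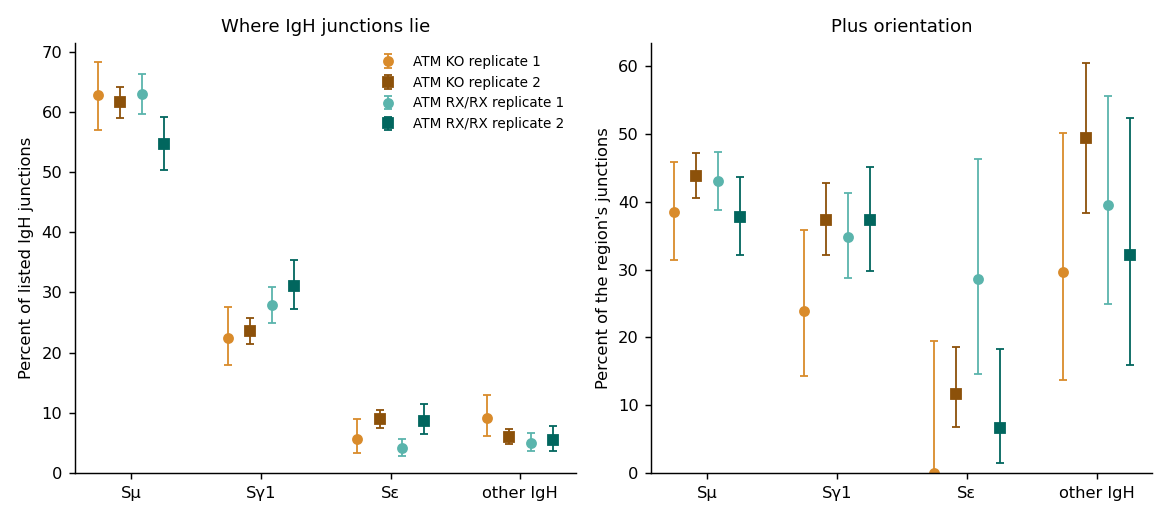
Percent of listed IgH junctions in each region (left) and percent of each region's junctions in the plus orientation (right), 1 point per library with its 95% Clopper-Pearson interval. In Sγ1 the ATM RX/RX libraries, at 27.8% and 31.1%, lie above those of ATM KO, while the groups overlap in every plus share.

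The share of joins in the plus orientation overlapped between the mutants in every region. In Sμ they made up 38.5%, 43.9%, 43.0% and 37.8% of junctions, with a high and a low library in each group. The edgeR fold of this share was 0.960, with an interval of 0.822 to 1.12 (edgeR adjusted p = 0.860). It is 1 of 18 shares within regions that were fitted together. Their fitted dispersion was near 0, so their intervals cover little more than counting error. In Sγ1 the share was 23.9% in ATM KO replicate 1, on 67 junctions, and 37.4%, 34.9% and 37.3% in the rest (1.02-fold, 0.760 to 1.37, edgeR adjusted p = 0.892). In Sε it was 0 of 17, for which a limit of 3 counts allows up to 17.6%, then 15 of 128, 10 of 35 and 3 of 45. These are listed junctions. For ATM RX/RX replicate 2 the summary counts hold 47 Sε junctions, as 2 lines of its list are empty. ATM RX/RX replicate 1, at 28.6% (14.6 to 46.3), and replicate 2, at 6.67% (1.40 to 18.3), lay on both sides of ATM KO replicate 2. The fold of 1.57 had an interval of 0.493 to 4.86. Wild-type Sμ junctions, as background, were 24.6% ± 0.233 (SD, n = 2) plus.

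The plus joins of Sμ were also placed relative to the bait. Upstream of the bait start lay 12 of 72, 96 of 387, 82 of 232 and 31 of 107 plus-orientation Sμ junctions, or 16.7%, 24.8%, 35.3% and 29.0%. Both ATM RX/RX libraries were higher, by 4.17 to 18.7 points (mean 11.4, pooled SD 5.17, exact permutation p = 0.33). This and the other shares by distance were added after the data were seen. For this one the wild-type libraries had 14.5% ± 8.57 (SD, n = 2). Minus-orientation junctions were almost absent upstream, at 0.870%, 2.02%, 3.26% and 0.568%. Minus-orientation junctions at 2000 bp or more downstream made up 50.4%, 35.2%, 41.0% and 49.4%, where the groups overlapped. At 4000 bp or more they made up 15.7%, 20.8%, 21.2% and 23.9%, higher in both ATM RX/RX libraries by 0.365 to 8.21 points (mean 4.29, pooled SD 2.91, exact permutation p = 0.33). The median distance of all minus-orientation Sμ junctions from the bait start was 2033, 1219, 1332 and 1945 bp. For plus joins the medians were lower, at 773, 640, 510.5 and 681 bp. Upstream junctions count as negative distances, so the plus medians do not measure how near to the bait these joins lay.

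**Figure D2:**
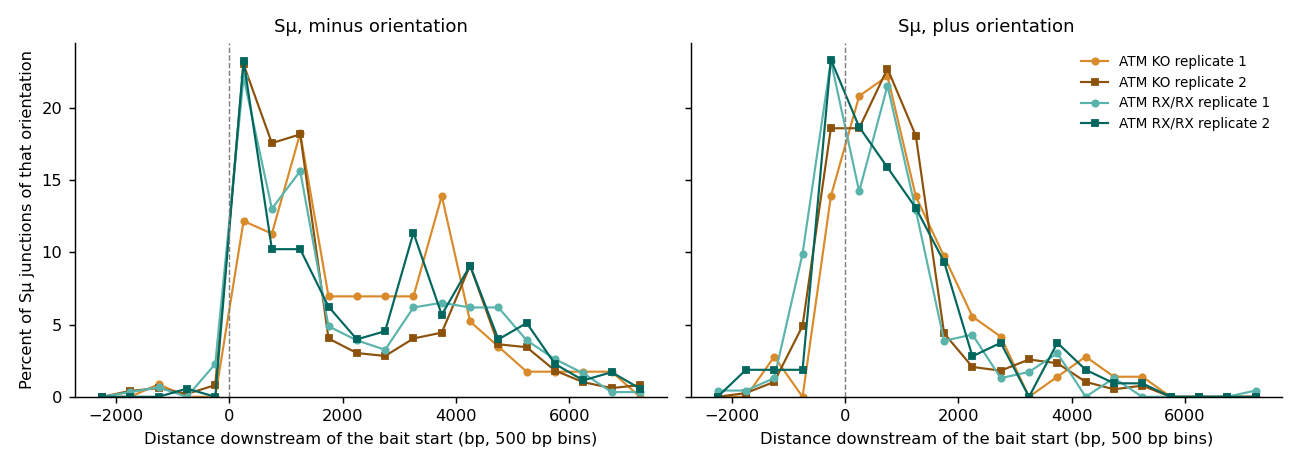
Percent of Sμ junctions of each orientation in 500 bp bins by distance downstream of the bait start (dashed line at 0), 1 line per library. In the bin just upstream of the start, plus junctions stand at 13.9% and 18.6% in ATM KO and at 23.3% and 23.4% in ATM RX/RX.

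Of 42 bins of 500 bp with at least 10 junctions, edgeR called 0 (0.0%) and DESeq2 called 0. By unadjusted p under 0.05, 1 bin (2.38%) stood out, Sμ at chr12:114662501-114663000 in the modified build. It held 0, 3, 4 and 4 junctions, 3.51-fold in ATM RX/RX with an interval from 1.00 to 15.8 (edgeR adjusted p = 0.718). The 3 densest Sμ bins lay at the bait and just downstream. From 114668001 to 114668500 the bin held 19.3%, 19.8%, 15.8% and 10.6% of Sμ junctions, lower in both ATM RX/RX libraries, with a fold of 0.693 (0.461 to 1.04, edgeR adjusted p = 0.718). From 114668501 to 114669000 it held 13.9%, 20.0%, 16.5% and 16.3% (fold 0.915, 0.607 to 1.38). From 114669001 to 114669500, which holds the bait start, it held 12.8%, 15.5%, 17.8% and 19.8%, higher in both ATM RX/RX libraries, with a fold of 1.27 (0.849 to 1.90). The narrowest interval of a bin, 0.568 to 1.15, belonged to Sμ from 114667501 to 114668000.

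The densest Sγ1 bins ran from 114577001 to 114577500 (10.4%, 8.01%, 9.66% and 10.6%), from 114577501 to 114578000 (11.9%, 6.23%, 7.56% and 12.4%) and from 114578001 to 114578500 (10.4%, 11.0%, 7.98% and 8.70%). Their folds were 1.18 (0.738 to 1.89), 1.30 (0.803 to 2.17) and 0.763 (0.478 to 1.21). Of all bins the widest interval, 0.331 to 8.34, was that of Sγ1 from 114573501 to 114574000, with 0, 4, 2 and 4 junctions. The 3 densest Sε bins lay side by side from 114513501 to 114515000, and their folds were 1.06 (0.404 to 2.65), 0.580 (0.186 to 1.57) and 0.974 (0.361 to 2.48). The median minus-orientation joint lay 96882 and 96822 bp from the bait start in Sγ1 of ATM KO and 96106 and 95739 bp away in ATM RX/RX, nearer in both ATM RX/RX libraries. The median plus-orientation Sγ1 joint lay 91585 and 91003 bp away in ATM KO and 91837 and 91659 bp away in ATM RX/RX, farther in both. For minus-orientation joints in Sε the medians were 154820, 155004, 155069 and 155219.5 bp, farther in both. Each of these differences in medians had an exact permutation p of 0.33. ATM KO replicate 1 had 51 minus and 16 plus junctions in Sγ1 and 17 minus junctions in Sε. As background, the wild-type libraries had minus-orientation Sγ1 medians of 95846 and 97094 bp. These lay farther apart than the means of ATM RX/RX and ATM KO, 95922.5 and 96852 bp.

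Joint structure was read from the gap between bait and prey on each read: an overlap is microhomology of that length, 0 is blunt, and a positive gap is an insertion. Within Sμ no share was called. Microhomology of 1 bp or more was found in 72.2%, 66.6%, 72.0% and 72.8% of Sμ joints, where ATM KO replicate 2 alone stood lower. The fold of 1.07 had the narrowest interval of the 18 shares tested, 0.960 to 1.19 (edgeR adjusted p = 0.669). As for the plus shares, the intervals of these shares cover little more than counting error. At 2 bp or more the interval was 0.931 to 1.18, and at 4 bp or more 0.826 to 1.28. Blunt Sμ joints made up 11.2%, 11.7%, 10.0% and 10.6%, with a fold of 0.881 (0.666 to 1.16). The groups did not overlap there, but the mean difference was 1.14 points and the counting interval of each library held the values of the other 3. Sμ insertions made up 16.6%, 21.8%, 18.0% and 16.6% (fold 0.840, 0.659 to 1.07). Among single lengths in Sμ, microhomology of 1 bp, at 13.9%, 11.7%, 13.5% and 14.8%, had the narrowest interval of the 24 structure classes (0.901 to 1.49).

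In Sγ1 no share was called either. Microhomology of 1 bp or more was found in 64.2%, 71.2%, 76.5% and 72.7% of Sγ1 joints, higher in both ATM RX/RX libraries. At 3 bp or more the shares were 35.8%, 32.9%, 39.1% and 43.5%, again higher in both ATM RX/RX libraries. At 5 bp or more, at 16.4%, 13.1%, 13.9% and 13.7%, they were not. The folds at 1, 2 and 4 bp or more were 1.07 (0.909 to 1.26), 1.15 (0.953 to 1.38) and 1.16 (0.840 to 1.60). Blunt Sγ1 joints made up 19.4%, 16.6%, 10.5% and 15.5%, lower in both ATM RX/RX libraries, a fold of 0.734 with an interval of 0.508 to 1.05 (edgeR adjusted p = 0.662). Insertions of 2 bp or more were at 8.96%, 8.90%, 5.46% and 5.59% (6, 30, 13 and 9 joints), and those of 1 bp at 7.46%, 3.26%, 7.56% and 6.21%.

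Blunt joints to Sε gave the 1 called difference between the mutants. They numbered 3 of 17 and 26 of 128 in ATM KO, 17.6% (3.80 to 43.4) and 20.3% (13.7 to 28.3), against 2 of 35 and 1 of 45 in ATM RX/RX, 5.71% (0.700 to 19.2) and 2.22% (0.0562 to 11.8). Both ATM RX/RX libraries lay below both ATM KO libraries, by 11.9 to 18.1 points, and the group means were 3.97% ± 2.47 and 19.0% ± 1.88 (SD, n = 2 each; exact permutation p = 0.33). This was the 1 of 18 shares (5.56%) that passed in edgeR, with 0.188 times the ATM KO level in ATM RX/RX (log2 fold -2.42, interval -4.48 to -0.92, edgeR adjusted p = 0.0340). DESeq2 called 0 of the 18. The same joints, tested as 1 of 24 structure classes, gave an edgeR adjusted p of 0.160, and no class passed there (0.0%, with 1 class, or 4.17%, at an unadjusted p under 0.05, and 0 called by DESeq2). The call was also lost without any 1 of the 4 libraries, with edgeR adjusted p from 0.0734 to 0.628, and with the replicate number as a block (0.641). It rests on 3 joints in ATM RX/RX, and the fitted dispersion of the 18 shares was near 0, so the p-value covers little more than counting error. Blunt Sε joints were at 25.6% ± 0.796 (SD, n = 2) in wild type.

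The 3 blunt Sε joints of ATM RX/RX and the 3 of ATM KO replicate 1 are shown as read, with the last 20 bases of bait in lower case and the first 20 of Sε in capitals. In the order shown they lie on chromosome 12 of the modified build at 114514900, 114515077, 114511140, 114512818, 114512921 and 114514010, the second in the plus orientation and the others in the minus orientation. All 3 ATM RX/RX joints kept 65 to 70 bases of bait and so ended at the place of the first AGCT motif or just past it. The read of ATM RX/RX replicate 1, joint 2, has ATCT there instead of AGCT. Those of ATM KO replicate 1 kept 73, 38 and 35. The 26 blunt Sε joints of ATM KO replicate 2 are not shown, so the joints below cannot tell the mutants apart by bait end. Over all Sε joints, ends at bases 64 to 68 were rarer in both ATM RX/RX libraries, by 4.51 to 23.7 points. The window was chosen after the data were seen, and the exact permutation p was 0.33. These ends averaged 22.5% ± 9.75 for the knockout and 8.41% ± 3.82 for ATM RX/RX (SD, n = 2 each). The knockout mean weights both libraries equally, and ATM KO replicate 1 had only 17 Sε joints.

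ATM RX/RX replicate 1, joint 1: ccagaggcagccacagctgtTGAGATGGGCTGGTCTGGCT
ATM RX/RX replicate 1, joint 2: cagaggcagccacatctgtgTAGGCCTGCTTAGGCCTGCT
ATM RX/RX replicate 2, joint 1: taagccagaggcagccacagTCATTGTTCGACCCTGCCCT
ATM KO replicate 1, joint 1: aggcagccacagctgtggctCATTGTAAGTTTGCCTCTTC
ATM KO replicate 1, joint 2: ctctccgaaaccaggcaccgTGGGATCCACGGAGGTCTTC
ATM KO replicate 1, joint 3: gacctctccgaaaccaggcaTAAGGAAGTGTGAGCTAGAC

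The other Sε joints were mostly of the microhomology kind. Microhomology of 1 bp or more was found in 64.7%, 60.2%, 74.3% and 75.6% of Sε joints, higher in both ATM RX/RX libraries, with a fold of 1.24 (0.886 to 1.71, edgeR adjusted p = 0.669). Its length differed between the ATM RX/RX libraries. Microhomology of exactly 1 bp made up 8.57% in replicate 1 and 37.8% in replicate 2, beside 29.4% and 12.5% in ATM KO, and this class had the widest interval of the 24 (0.326 to 8.84). At 2 bp or more the groups overlapped, with 35.3%, 47.7%, 65.7% and 37.8% (1.08-fold, 0.684 to 1.68). At 3 bp or more the shares were 17.6%, 27.3%, 48.6% and 31.1%, above ATM KO in both ATM RX/RX libraries. At 4 bp or more, with 17.6%, 13.3%, 17.1% and 15.6%, they overlapped again (1.18-fold, 0.572 to 2.34). Sε insertions, at 17.6%, 19.5%, 20.0% and 22.2%, had a fold of 1.10 (0.582 to 2.02).

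**Figure D3:**
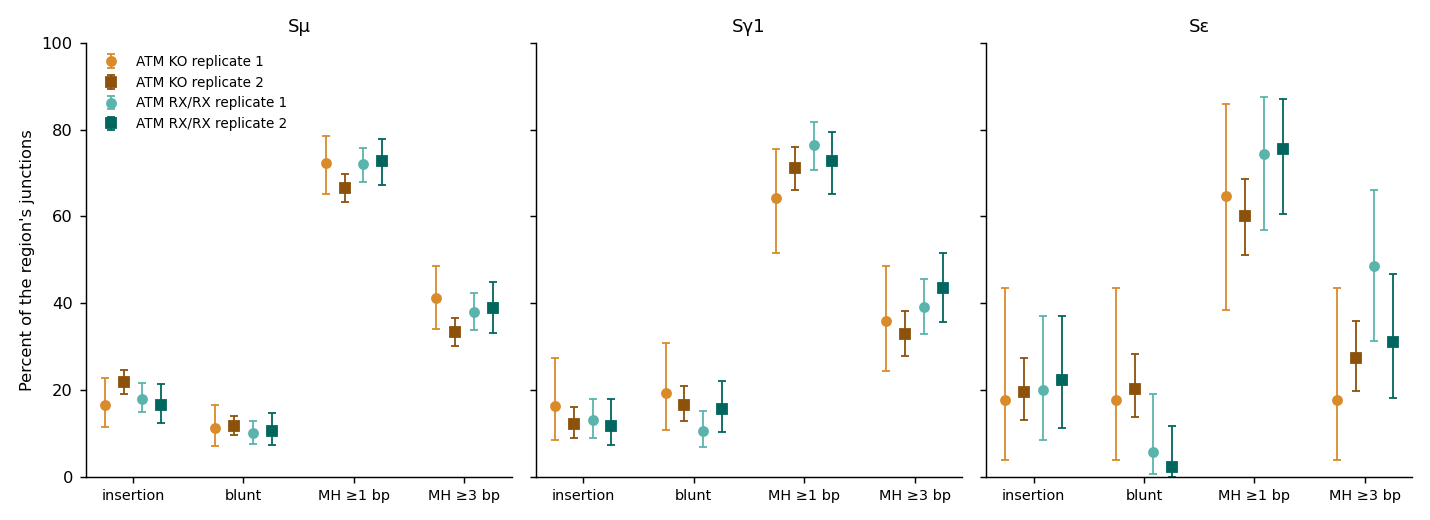
Percent of joints with an insertion, blunt, or with microhomology (MH) of at least 1 or 3 bp in Sμ, Sγ1 and Sε, 1 point per library with its 95% Clopper-Pearson interval. Blunt Sε joints are at 5.71% and 2.22% in ATM RX/RX and at 17.6% and 20.3% in ATM KO, while the Sμ points of the groups lie close together.

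Over Sγ1 and Sε together, blunt joints made up 19.0%, 17.6%, 9.89% and 12.6%. Microhomology of 3 bp or more was at 32.1%, 31.4%, 40.3% and 40.8%, a mean difference of 8.76 points with pair differences of 8.15 to 9.38 and a pooled SD of 0.444 (exact permutation p = 0.33). That SD comes from 2 libraries per group and leaves out counting error. ATM KO replicate 1 had only 67 Sγ1 and 17 Sε joints, so the difference cannot be judged by this SD. At 4 bp or more, with 19.0%, 15.9%, 18.7% and 20.4%, the groups overlapped. Of the 55 shares of regions, orientations and structures compared, the groups did not overlap in 23 (41.8%), and many of these shares hold the same joints. It was 41 of 97 with the shares by distance, bait end, other IgH position and structure by orientation added. For 2 against 2 libraries without ties, a fraction of 0.33 of all possible labellings gives groups that do not overlap.

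The mean length of microhomology overlapped between the mutants in each region. It was 2.95, 2.88, 2.94 and 2.95 bp in Sμ, 3.09, 2.88, 3.00 and 3.05 bp in Sγ1, and 2.45, 2.62, 2.92 and 2.26 bp in Sε. The differences of the group means were 0.0304 bp, 0.0423 bp and 0.0549 bp, each under its pooled SD (0.0344, 0.109 and 0.340 bp). With blunt joints counted as length 0, Sγ1 and Sε joints together had means of 2.29, 2.24, 2.65 and 2.45 bp, higher in both ATM RX/RX libraries. Inserted stretches in Sγ1 averaged 7.09 and 5.51 bp in ATM KO (11 and 41 joints) and 5.00 and 4.32 bp in ATM RX/RX (31 and 19 joints), shorter in both ATM RX/RX libraries. In Sε they averaged 2.00, 7.32, 4.00 and 5.40 bp (3, 25, 7 and 10 joints), where the groups overlapped.

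**Figure D4:**
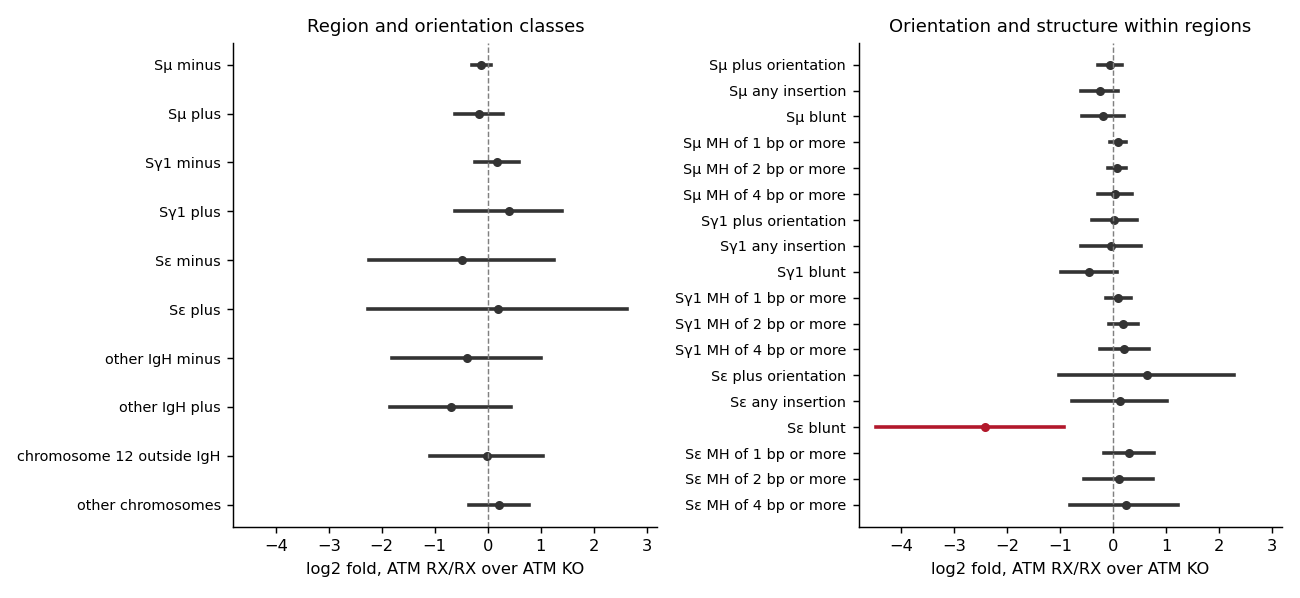
Log2 fold of ATM RX/RX over ATM KO (points) with 95% intervals (bars) for the 10 region and orientation classes (left) and the 18 shares within regions (right), from edgeR. Blunt Sε joints, in red, have an interval of -4.48 to -0.92, while those of all other classes and shares include 0.

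The letters shared at the joints were also counted. Among microhomologies of 3 bp or more, AGC was the commonest, at 11, 28, 31 and 13 joints, and AGCTG was found at 11, 23, 14 and 5. AGCT itself was found at 2, 19, 13 and 9 joints, or 0.671%, 1.33%, 1.52% and 1.74% of IgH joints. GCTG stood apart: 6 and 14 joints in ATM KO had exactly these 4 bases, against 1 and 0 in ATM RX/RX, or 20 of 1730 against 1 of 1372 listed joints. This string was singled out after its values were seen and is given without a test. Of the 18 strings of 3 bp or more seen at least 15 times, 7 (38.9%) had groups that did not overlap. The 21 GCTG joints used bait ends at base 68 (10 joints), 74 (7) and 77 (4), and 21 separate prey positions. In Sμ they numbered 4, 11, 0 and 0, and in Sε 2, 2, 1 and 0.

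The last bait base kept was compared as well. Of 14 classes of read position at the bait end, edgeR called 0 (0.0%), 0 had an unadjusted p under 0.05, and DESeq2 called 0. In Sμ joints 71.1%, 70.7%, 68.6% and 67.8% ended at read positions 51 to 100, with a fold of 0.965 and the narrowest interval of this family (0.865 to 1.08). The fitted dispersion of this family was also near 0, so its intervals cover little more than counting error. The widest interval was that of positions 251 to 300, with 1, 1, 0 and 1 joints. Bait kept on the read had a median of 56, 59, 56 and 57 bases. At finer scale, in a window chosen after the data were seen, ends at bases 64 to 68, from the first AGCT motif to the base after it, made up 18.1%, 15.2%, 13.1% and 13.5% of Sμ, Sγ1 and Sε joints. ATM KO was higher in each region, with 29.4% and 15.6% against 5.71% and 11.1% in Sε, 17.9% and 13.9% against 11.3% and 13.0% in Sγ1, and 17.1% and 15.6% against 14.3% and 14.1% in Sμ. The exact permutation p was 0.33 in each. Because the window was chosen after these joints were seen, the regions do not serve as separate support. In ATM KO replicate 1 the Sε share rests on 17 joints. The share of joints with bait kept beyond base 70 overlapped between the groups in Sγ1 and in Sε. In Sμ that share was higher in both ATM RX/RX libraries, with means of 24.0% against 21.5%.

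**Figure D5:**
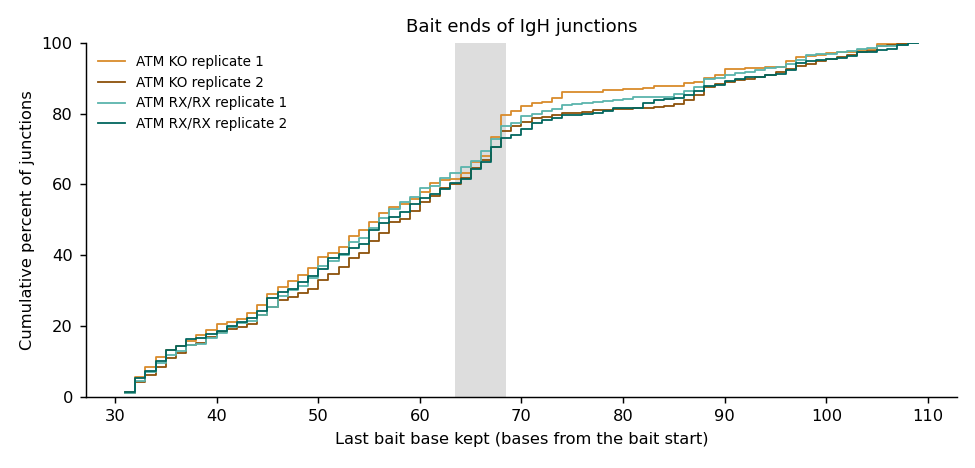
Cumulative percent of IgH joints by the last bait base kept, 1 line per library, over ends up to the AflII site, with bases 64 to 68 shaded and the 25 joints that keep bait beyond the site left out. Of Sμ, Sγ1 and Sε joints alone, without other IgH joints, 13.1% to 18.1% per library end in the shaded bases.

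Joins elsewhere in IgH were few. Between the Sμ and Sγ1 lists lay 10, 39, 15 and 15 junctions, or 3.36%, 2.72%, 1.75% and 2.90% of IgH junctions. Between the Sγ1 and Sε lists lay 9, 22, 9 and 5, or 3.02% and 1.54% in ATM KO against 1.05% and 0.967% in ATM RX/RX. Downstream of the Sε list lay 3, 3, 1 and 0, and for 0 of 517 a limit of 3 counts allows up to 0.580%. Upstream of the Sμ list lay 5, 21, 18 and 8, at 1.68%, 1.47%, 2.11% and 1.55%. Outside IgH, chromosome 12 took 2.90%, 4.27%, 4.22% and 3.14% of all junctions and the other chromosomes 25.1%, 17.5%, 26.1% and 22.5%. Their folds were 0.985 (0.471 to 2.05) and 1.16 (0.785 to 1.72).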

How the data were processed

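Junction lists and summary counts were used as deposited, 1 set per library. The authors' deposited lists hold other values, which are junction coordinates and read positions of the bait and prey alignments, and a deposited score of 1 or -1 for orientation. Library totals are counts made by the authors, as are the first lines of the summary, which give junctions by region and orientation. Per the submitters' processing notes, Bowtie2 and mm9 were used. Per the series text, the IgH constant-region segment of mm9 was exchanged for its 129-strain counterpart, so IgH coordinates are those of this modified build and were not converted. Versions are not given in the sources used here.

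Empty lines of the lists (0, 14, 4 and 4) were left out. The gap is the prey start minus the bait end minus 1 on the read. Per library 3.56% to 6.19% of IgH junctions of the 4 mutant libraries matched one in another library in coordinate, orientation, bait position and gap, and whether these are separate events was not tested. edgeR 4.0.16 (quasi-likelihood F test, 1 common dispersion per family, genotype only, 4 libraries, offset the library or region total) ran on 5 families in R 4.3.3, with Benjamini-Hochberg adjustment within each family at 0.05. Intervals are at the 95% level, the wider of the quasi-likelihood and the Poisson profile, a form chosen after first results were seen to match the test. The fits were tested on simulated data. DESeq2 1.42.0, other filters, offsets and bins, a replicate block and leaving out libraries were alternatives. Named classes and bins follow a rule: all region classes, those past 0.05 adjusted or unadjusted, the 3 densest bins per region, and the narrowest and widest interval of each family.

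Nothing in the labels ties a library to 1 mouse, so p-values measure at most how these libraries spread, and that spread may be technical. For the shares within regions and the bait end classes the fitted dispersion was near 0 (2.46e-08 and 2.37e-08). Their edgeR p-values and intervals thus cover little more than counting error. Members and lists were chosen with earlier results of these data known. Junctions outside IgH were taken from the summary counts.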

Additional observations from a re-analysis of the deposited data

How the results depend on the processing

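The 5 families kept their counts of calls under all alternatives run (0 in each of the 4 families without a call), except the shares within regions, where the single call, blunt Sε joints, became 0 with DESeq2 (log2 fold -2.35), with the replicate block (-2.45), and without each library in turn (0 to 0 calls, log2 fold -3.17 to -1.81). It remained 1 with all 6 libraries in 1 fit, the filter on low counts, matched junctions left out and minus-orientation joints alone. The numbers do not pair the libraries by any label, and deviations of same-numbered libraries correlated at -0.179, -0.311, -0.730, 0.0731 and -0.492 over region classes, structure classes, shares within regions, bins and bait ends. With the pairing crossed, an alternative added after the data were seen, 0 features of any family were called.

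Of 306 alternatives for single classes and bins, 274 kept direction and side of the threshold and 25 turned. Those that turned without leaving out a library were chromosome 12 outside IgH (log2 fold 0.0098 with DESeq2, 0.0322 with the crossed replicate block, 0.0731 with TMM factors), Sε microhomology of 1 bp (-0.00904 with the crossed replicate block) and, with matched junctions left out, the Sε bins from 114513501 (-0.0515) and from 114514501 (0.00567). Leaving out 1 library gave log2 folds from -1.41 to 0.19 for minus-orientation Sε, -0.18 to 0.37 for plus-orientation Sε, -0.28 to 0.37 for chromosome 12 outside IgH, -0.0435 to 0.476 for other chromosomes, -0.77 to 1.37 for Sε microhomology of 1 bp and -2.14 to 0.92 for Sμ bait ends at 251 to 300. For the bins from 114513501, 114514501, 114573501, 114577001, 114577501 and 114668501 it gave -0.10 to 1.76, -0.91 to 0.20, -0.21 to 1.35, -0.0585 to 0.324, -0.32 to 0.70 and -0.28 to 0.24.

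Among 17 share differences, 9 turned under some alternative. Leaving out 1 library gave -7.43 to 0.869 points for the Sμ share, -3.23 to 1.38 for the Sε share, -1.80 to 4.92, -3.45 to 1.92 and -1.32 to 12.2 for the plus shares of the 3 regions together, of Sμ and of Sγ1, and -0.00335 to 0.0641, -0.0646 to 0.149 and -0.274 to 0.384 bp for mean microhomology length in Sμ, Sγ1 and Sε. With matched junctions left out, the Sμ plus share differed by 0.295 points and the Sμ length by -0.00677 bp. With microhomology counted from 4 bp instead of 1 bp and all junctions kept, its Sμ share differed by -0.824 points. In minus-orientation joints alone the Sγ1 length differed by -0.0376 bp. The cause of these turns was not tested.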
